A study of Caenorhabditis elegans with 12 samples.

Results

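The 10 genes described here encode enzymes of glycolysis in Caenorhabditis elegans: hxk-1, gpi-1, pfk-1.1, aldo-1, aldo-2, tpi-1, gpd-2, gpd-3, pgk-1 and enol-1. They were taken as a named set and found by their gene numbers among the 22191 mRNA genes of the deposited table, and all 10 were present. Expression was measured by RNA sequencing of total RNA from whole worms, in 12 libraries. CN30, described as trans-nuclear, is represented by 3 day-0 libraries and by a single library at each of days 6, 9 and 12. N2, the wild-type laboratory strain, has the same numbers at the same ages. All worms were fed Escherichia coli OP50 at 20 °C. The parent strains of CN30, the stage that day 0 stands for, and whether day-0 libraries come from separate cultures are not given in the sources used here. P-values therefore measure the spread between these libraries, which at day 0 may be technical. In comparisons of days 6 to 12 with day 0, the later spread also holds change between the days, since each strain has a single library per day. The SD of a later group is likewise taken over 3 different days. The values are FPKM, fragments scaled to the length of the gene and to the size of the library, so levels can be set side by side between genes. The sequencing depth is unknown, and no counting interval can be given.

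Glycolysis splits glucose into pyruvate in the cytosol and yields ATP and NADH on the way. Hexokinase and phosphofructokinase carry out steps that run in 1 direction in the cell and are the main points of control, whereas aldolase, triosephosphate isomerase, glyceraldehyde-3-phosphate dehydrogenase (GAPDH), phosphoglycerate kinase and enolase work near equilibrium and also serve gluconeogenesis. C. elegans has more than 1 gene for several of these steps, and muscle, neurons and the germ line draw on glycolysis to different degrees.

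Libraries of the 2 age classes differed widely. Summed FPKM over all mRNA genes lay between 726252 and 779302 at days 6 to 12 and between 874694 and 911271 at day 0. The 12 body-wall muscle markers, which include the myosin gene unc-54, were all lower at days 6 to 12 than at day 0 in both strains. Their summed level was 899.7 to 1667 FPKM at days 6 to 12 and 8217 to 9250 FPKM at day 0 in CN30, and 690.2 to 856 and 9259 to 10220 FPKM in N2. All 14 oocyte markers, such as oma-1, were higher in both strains, at 5240 to 5891 and 1839 to 2088 FPKM in CN30 and at 6271 to 7047 and 1447 to 2295 FPKM in N2. None of the 26 muscle and oocyte markers was listed at 0 in any library. The 13 hypodermis and cuticle markers, mostly collagen genes, summed to 94.8 to 1779 FPKM at days 6 to 12 and 12591 to 14553 FPKM at day 0 in CN30, and to 496 to 828 and 12419 to 20522 FPKM in N2. All 13 were called lower in CN30 and 9 in N2. Of the 13 genes, however, 7 in CN30 and 6 in N2 passed the filter on low values only through day 0, and col-120 was listed at 0 in later libraries. All 12 muscle markers were called lower and all 14 oocyte markers higher in both strains. Over all genes tested, 46% were called higher and 34.9% lower in CN30, and 40.7% and 32% in N2. The part of these tissues in the results below was not tested, and in whole-worm RNA fewer cells of a type cannot be told apart from less RNA per cell. At day 0, N2 replicate 2 stood apart: the log2 values of the genes differed from those of N2 replicates 1 and 3 with an SD of 0.64 and 0.67, against 0.27 between replicates 1 and 3. Its median log2 deviation from replicates 1 and 3 was 0.63 for intestine, 0.49 for oocyte, 0.32 for sperm and 0.05 for muscle markers. For hypodermis and cuticle it was -0.13, with genes moving both ways. There dpy-13 had 187 FPKM, against 1902 and 1650, and col-119 had 3526 FPKM, against 841 and 848.

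The 10 genes together made up 0.238 to 0.299% of summed FPKM at days 6 to 12 and 0.373 to 0.404% at day 0. Their summed level was 2043 ± 203 FPKM at days 6 to 12 and 3388 ± 83.0 FPKM at day 0 in CN30 (SD, n = 3 each), and 2126 ± 309 and 3523 ± 85.6 FPKM in N2. At day 0 the order of mean levels in CN30 was aldo-2, enol-1, gpd-3, gpd-2, tpi-1, aldo-1, pgk-1, hxk-1, pfk-1.1 and gpi-1. In N2 the order was the same except that gpd-3 stood before enol-1. The libraries of enol-1 and gpd-3 overlapped in both strains, so that their order is not settled. At days 6 to 12, aldo-2 and enol-1 stood well above the other 8 genes in both strains and overlapped with each other. Below them came gpd-3 and tpi-1 in CN30, and tpi-1 and hxk-1 in N2, again with overlapping libraries. The libraries of the 10 genes by day show 1 gene with higher means after day 0 and 9 with lower ones.

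**Figure D1:**
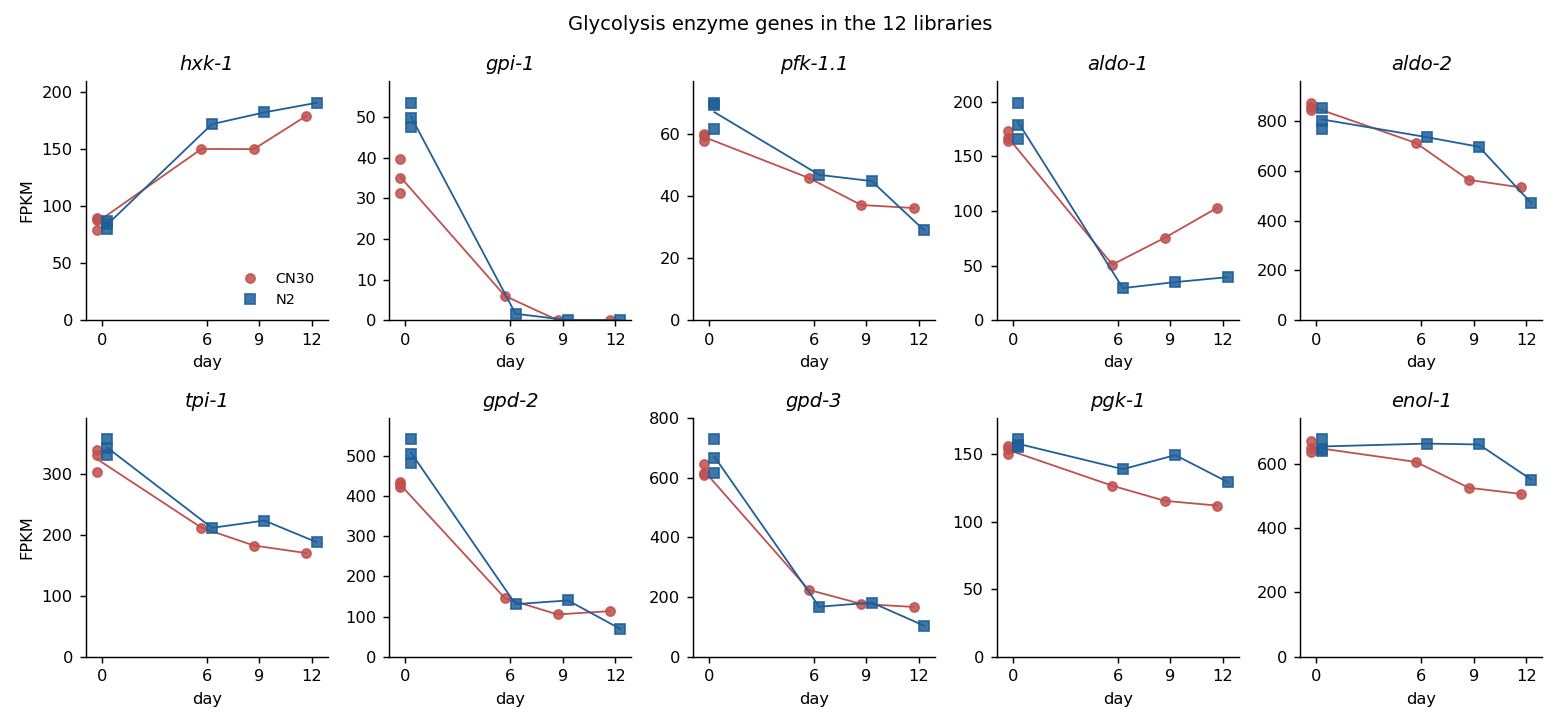
FPKM of the 10 glycolysis enzyme genes (vertical axes, linear, each from 0) against age in days, in CN30 (red circles) and N2 (blue squares); each point is 1 library and lines join the means of each day. At days 6 to 12 hxk-1 lies above its day-0 libraries, gpi-1 reaches 0, gpd-2 and gpd-3 are far below day 0 in both strains, and aldo-1 lies higher in CN30 than in N2 on each of the 3 later days.

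In CN30, 1 of the 10 genes was higher at days 6 to 12 than at day 0 and 9 were lower, in limma with Benjamini-Hochberg adjustment over 15069 genes at a threshold of 0.05. Of all genes tested, 46% were called higher and 34.9% lower, so a call in itself was common (80.9% of all genes in either direction). In N2, 1 gene was higher, 6 were lower and 3 were not called. In both strains gpi-1 is among the genes counted as lower, although it passed the filter of at least 1 FPKM in 3 libraries only through day 0. Of the 14129 genes tested there, 40.7% were called higher and 32% lower, 72.7% in either direction. The median log2 change of the 10 genes, gpi-1 included, was -0.68 in CN30 and -0.74 in N2, against 0.24 and 0.14 over all genes tested. Median-ratio rescaling of the libraries moved the median of all genes to -0.02 in CN30 and -0.01 in N2. Log2 changes below are on the log2(FPKM + 1) scale and are not corrected for this shift. Quantile normalization called 3 of the 10 genes higher and 7 lower in CN30, with aldo-2 and enol-1 turned to higher. In N2 it called 2 higher and 6 lower, with enol-1 among the higher ones. Lack of overlap between groups is given below only as a description, since its share over all genes was not counted.

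The first step is the phosphorylation of glucose by hexokinase. In CN30, hxk-1 (chromosome I, 9271479 to 9278689, minus strand, WBcel235) had 149.8, 149.7 and 179 FPKM at days 6, 9 and 12, against 87.9, 78.7 and 89.5 FPKM in the day-0 libraries. In N2 it had 172, 182 and 190.3 FPKM at these later days, against 84.0, 86.3 and 80.1 FPKM at day 0. The age classes did not overlap in either strain, and the later mean was 187% of the day-0 mean in CN30 and 217% in N2. The log2 change was 0.89 ± 0.10 in CN30 (SE, limma adjusted p = 0.000207) and 1.11 ± 0.07 in N2 (limma adjusted p = 3.12e-05), or 0.65 and 0.97 above the median of all genes. An assembled locus, MXLOC_002618, covers 91.1% of the exon bases of hxk-1 on the same strand, together with the gene F14B4.1. It had 24.2 to 28.6 FPKM at days 6 to 12 and 10.3 to 13.6 FPKM at day 0 in CN30, and 22.3 to 30.0 and 7.3 to 8.77 FPKM in N2. The locus was thus higher at the later days as well, but only 41.2% of its exon bases are shared with hxk-1. How reads were divided between hxk-1 and this locus is not given in the sources used here.

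The other hexokinase genes are hxk-2 and hxk-3. In CN30, hxk-3 had 49.9 ± 0.894 FPKM at days 6 to 12 and 36.8 ± 0.464 FPKM at day 0, and in N2 52.7 ± 2.84 and 36.5 ± 2.55 FPKM (SD, n = 3 each). It rose by 0.43 and 0.52 on the log2 scale (limma adjusted p = 0.000767 and 0.00213), but by 0.05 and 0.04 under quantile normalization, where it was not called. With median-ratio rescaling the hxk-3 call was lost in CN30 (0.14, limma adjusted p = 0.127). The gene hxk-2 was not called in either strain, with log2 changes of 0.02 in CN30 and 0.10 in N2 that turned to -0.32 and -0.35 under quantile normalization. The 3 hexokinase genes summed to 238 ± 15.97 FPKM at days 6 to 12 and 150.3 ± 7.22 FPKM at day 0 in CN30, and to 268 ± 9.95 and 152 ± 0.330 FPKM in N2.

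Glucose-6-phosphate isomerase, which turns glucose-6-phosphate into fructose-6-phosphate, is encoded by gpi-1 (chromosome I, 13576148 to 13581611, plus strand). Its annotated gene had 5.93, 0 and 0 FPKM at days 6, 9 and 12 in CN30, against 39.7, 34.9 and 31.4 FPKM at day 0. In N2 the values were 1.55, 0 and 0 FPKM at the later days, against 53.6, 47.5 and 49.9 FPKM at day 0. These zeros are not matched by the assembled locus that lies over the gene. MXLOC_001528 (chromosome I, 13576288 to 13585213, plus strand) shares 1942 of the 2082 exon bases of gpi-1, which is 93.3%, and also overlaps ubc-14, a gene for a ubiquitin-conjugating enzyme. It had 88.4, 84.4 and 85.8 FPKM at days 6, 9 and 12 in CN30, against 79.6, 88.4 and 89.5 FPKM at day 0. N2 worms had 107, 105 and 90.5 FPKM at these days, against 60.8, 55.8 and 75.1 FPKM at day 0.

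For gpi-1 the call thus depends on which value is read. The annotated gene alone was called lower in both strains, but it passed the filter on low values only through day 0, so this call is no support. No fold is given, since later libraries hold 0. With the locus added, the sum was 88.2 ± 5.38 FPKM at days 6 to 12 and 121 ± 2.06 FPKM at day 0 in CN30, a log2 change of -0.46 ± 0.07 (SE, limma adjusted p = 0.000855). In N2 the sum was 101 ± 9.52 and 114 ± 10.8 FPKM, a log2 change of -0.17 ± 0.11 that was not called (limma adjusted p = 0.187). The sum is only a guide, since each FPKM is scaled to its own length and the locus also holds ubc-14. How reads were divided between the gene and the locus is not given in the sources used here.

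**Figure D2:**
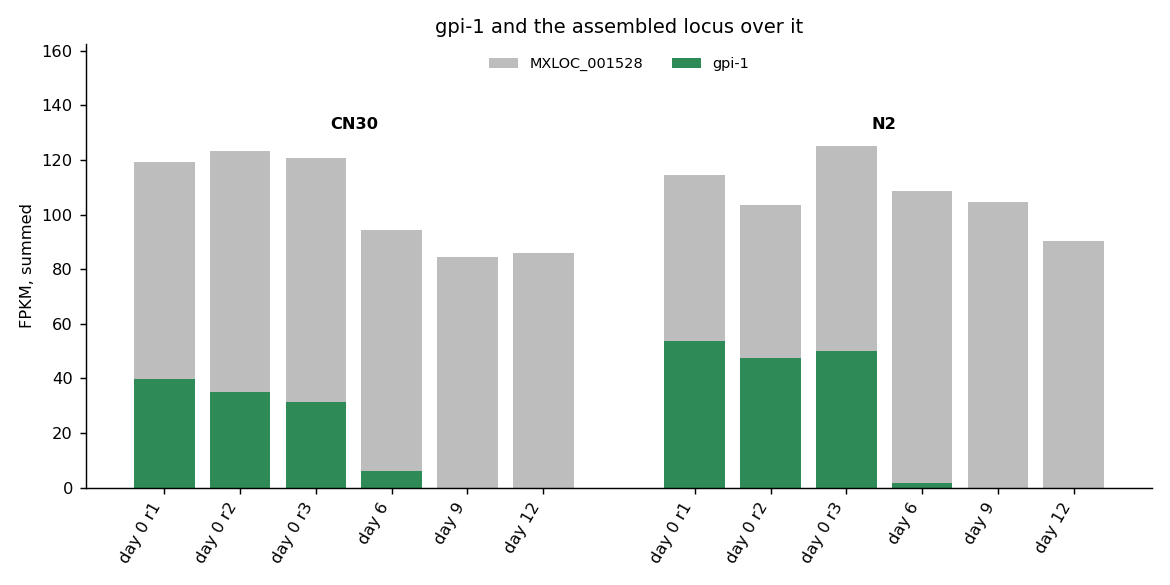
FPKM of gpi-1 (green) and of the assembled locus MXLOC_001528 over it (grey), stacked, in each of the 12 libraries; the vertical axis is linear from 0, and r1 to r3 are the day-0 replicates. The green part is 0 at days 9 and 12 in both strains, whereas the grey part lies between 84.4 and 107 FPKM in the 6 later libraries.

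Phosphofructokinase makes fructose-1,6-bisphosphate, the committed step of the pathway. In CN30, pfk-1.1 (chromosome X, 2940872 to 2945485, plus strand) had 45.8, 37.1 and 36.1 FPKM at days 6, 9 and 12, against 59.2, 57.8 and 59.9 FPKM at day 0. In N2 it had 46.8, 44.8 and 28.9 FPKM, against 61.5, 70.0 and 69.4 FPKM. Every later library lay below every day-0 library of its strain. The fall was 0.57 ± 0.10 on the log2 scale in CN30 and 0.75 ± 0.19 in N2 (limma adjusted p = 0.0022 and 0.0106). The second gene of this enzyme, pfk-1.2, was far lower in level, at 0.377 ± 0.306 FPKM at days 6 to 12 and 8.58 ± 0.218 FPKM at day 0 in CN30, and at 0.177 ± 0.153 and 11.2 ± 1.58 FPKM in N2. It passed the filter on low values only through its day-0 libraries, so no test of its change is given. The summed level of the sperm markers moved the same way, at 53.6 to 399 FPKM at days 6 to 12 and 7939 to 8362 FPKM at day 0 in CN30, and at 16.6 to 170 and 6990 to 8932 FPKM in N2. Of the 27 sperm markers in the table, 3 were at 0 in some later library of CN30 and 5 in N2, and their part in the pfk-1.2 values was not tested.

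Aldolase cleaves fructose-1,6-bisphosphate into a pair of triose phosphates and has 2 genes, aldo-1 and aldo-2, both on chromosome III. In CN30, aldo-1 (13563346 to 13564937, minus strand) had 50.8, 75.5 and 103 FPKM at days 6, 9 and 12, against 173, 164 and 166 FPKM at day 0. In N2 the values were 29.3, 34.8 and 39.3 FPKM, against 199, 166 and 179 FPKM. It fell in both strains, to 45.5% of its day-0 mean in CN30 and to 19.01% in N2. The log2 change was -1.18 ± 0.24 in CN30 (SE, limma adjusted p = 0.0035) and -2.37 ± 0.13 in N2 (limma adjusted p = 1.97e-05).

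The more abundant gene, aldo-2 (5874673 to 5876625, minus strand), had 712, 564 and 534 FPKM at days 6, 9 and 12 in CN30, against 874, 847 and 858 FPKM at day 0. N2 worms had 736, 697 and 470.0 FPKM, against 767, 854 and 802 FPKM. It was called lower in CN30, by 0.52 ± 0.12 on the log2 scale (limma adjusted p = 0.00572), but its direction turned under quantile normalization, to 0.32 (limma adjusted p = 0.00916). In N2 the change was -0.37 ± 0.18 and was not called (limma adjusted p = 0.0986), and quantile normalization gave 0.36.

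The ratio of the aldolase genes within a library depends little on how the library was scaled. On the log2 scale, aldo-2 over aldo-1 was 3.78, 2.89 and 2.36 at days 6, 9 and 12 in CN30, against 2.33, 2.36 and 2.36 at day 0. In N2 it was 4.60, 4.29 and 3.55, against 1.94, 2.35 and 2.16. It was higher at days 6 to 12 by 0.66 in CN30 and 1.99 in N2, or 1.33 over both strains (exact permutation test within strains, two-sided, p = 0.01, adjusted p = 0.02 over the 2 ratios tested, smallest possible p = 0.005). The CN30 library of day 12 was the exception, since its ratio lay within the range of the CN30 day-0 libraries. Expressed as a share, aldo-1 made up 6.66, 11.8 and 16.2% of aldolase FPKM at days 6, 9 and 12 in CN30, against 16.2 to 16.5% at day 0, and 3.83, 4.76 and 7.72% in N2, against 16.3 to 20.6%.

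**Figure D3:**
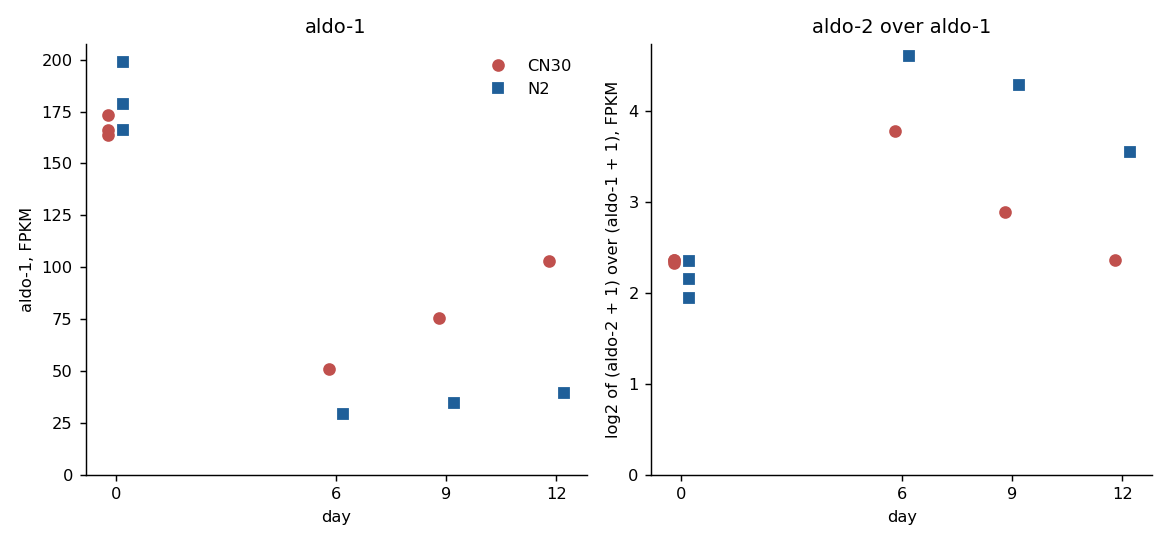
Left, FPKM of aldo-1 against age in days; right, log2 of (aldo-2 + 1) over (aldo-1 + 1) against age, in CN30 (red circles) and N2 (blue squares), with 1 point per library and both vertical axes from 0. On each later day aldo-1 is higher in CN30 than in N2 and the ratio is lower, and at day 12 the ratio in CN30 is 2.36, as at day 0.

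Triosephosphate isomerase interconverts the triose phosphates. In CN30, tpi-1 (chromosome II, 12036835 to 12039139, minus strand) had 212, 182 and 169.9 FPKM at days 6, 9 and 12, against 331, 303 and 339 FPKM at day 0. In N2 it had 211, 223 and 188 FPKM, against 356, 330.2 and 342 FPKM. It fell by 0.79 ± 0.10 on the log2 scale in CN30 and by 0.73 ± 0.09 in N2 (limma adjusted p = 0.000393 and 0.000337), with no overlap between the age classes. Quantile normalization made these falls smaller, at -0.44 and -0.40.

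GAPDH, the step that reduces NAD, is encoded by 4 genes. The neighbours gpd-2 (chromosome X, 3113443 to 3114689) and gpd-3 (3112091 to 3113341) lie on the minus strand with a gap of 101 bases, and gpd-2 is known to be transcribed in an operon with gpd-3 and mai-1. In CN30, gpd-2 had 145, 105 and 114 FPKM at days 6, 9 and 12, against 434, 423 and 429 FPKM at day 0. In N2 the values were 131, 140.2 and 69.1 FPKM, against 541, 505 and 482 FPKM. The gene stood at 28.3% of its day-0 mean in CN30 and at 22.3% in N2, and it fell by 1.82 ± 0.12 and 2.22 ± 0.26 on the log2 scale (limma adjusted p = 3.21e-05 and 0.000336).

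Its neighbour gpd-3 moved with it. In CN30, gpd-3 had 224, 177 and 167 FPKM at days 6, 9 and 12, against 644, 609.5 and 616 FPKM at day 0. N2 worms had 167, 182 and 104.2 FPKM, against 728, 615 and 667 FPKM. The log2 change was -1.72 ± 0.12 in CN30 and -2.18 ± 0.21 in N2 (limma adjusted p = 3.35e-05 and 0.000137). The log2 ratio of gpd-2 over gpd-3 was -0.64 ± 0.10 at days 6 to 12 and -0.54 ± 0.03 at day 0 in CN30, and -0.44 ± 0.13 and -0.39 ± 0.10 in N2 (SD, n = 3 each). The ratio differed by -0.07 between the age classes, which did not pass (exact permutation test within strains, two-sided, p = 0.225). The coding sequences of gpd-2 and gpd-3 are nearly identical, and how reads that fit both were counted is not given in the sources used here, so the split between them is uncertain. The other neighbour of gpd-2, mai-1, which encodes an inhibitor of the mitochondrial ATPase, was low throughout, at 1.5 to 2.41 FPKM at days 6 to 12 and 0.63 to 1.85 FPKM at day 0 in CN30, and at 1.54 to 2.75 and 2.45 to 3.48 FPKM in N2.

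The other pair of GAPDH genes, gpd-1 and gpd-4, went the other way. In CN30, gpd-1 had 598, 454 and 391 FPKM at days 6, 9 and 12, against 255, 238 and 212 FPKM at day 0, and in N2 672, 639 and 509 FPKM, against 222, 258 and 204 FPKM. It rose by 1.01 ± 0.16 on the log2 scale in CN30 and by 1.40 ± 0.14 in N2 (limma adjusted p = 0.0013 and 0.000143). The gene gpd-4 rose in N2, with 287 ± 44.1 FPKM at days 6 to 12 and 136 ± 20.98 FPKM at day 0 (log2 change 1.07 ± 0.16, limma adjusted p = 0.000877). In CN30 it had 239 ± 62.01 and 182 ± 6.05 FPKM and was not called (limma adjusted p = 0.0977), but it was called higher without CN30 day 12 (limma adjusted p = 0.0285). How reads that fit both gpd-1 and gpd-4 were counted is not given either, so the split between them is uncertain as well. In C. elegans gpd-1 and gpd-4 are known as the pair used in embryos, and gpd-2 and gpd-3 as the pair used mainly after embryonic life, with body-wall muscle among their sites.

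The pair gpd-1 and gpd-4 therefore held 71.0, 70.3 and 67.5% of GAPDH FPKM at days 6, 9 and 12 in CN30, against 27.2 to 29.2% at day 0. In N2 their share was 76.9, 74.5 and 81.2%, against 21.7 to 27.2%. The share of each later library was above that of every day-0 library. The total of the 4 genes was 1030 ± 218 FPKM at days 6 to 12 and 1469 ± 46.6 FPKM at day 0 in CN30, and 1158 ± 207 and 1543 ± 74.6 FPKM in N2. All 12 muscle markers fell, all 14 oocyte markers rose and the hypodermis and cuticle sum was far lower over the same libraries, as given above, and their part in this exchange was not tested.

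**Figure D4:**
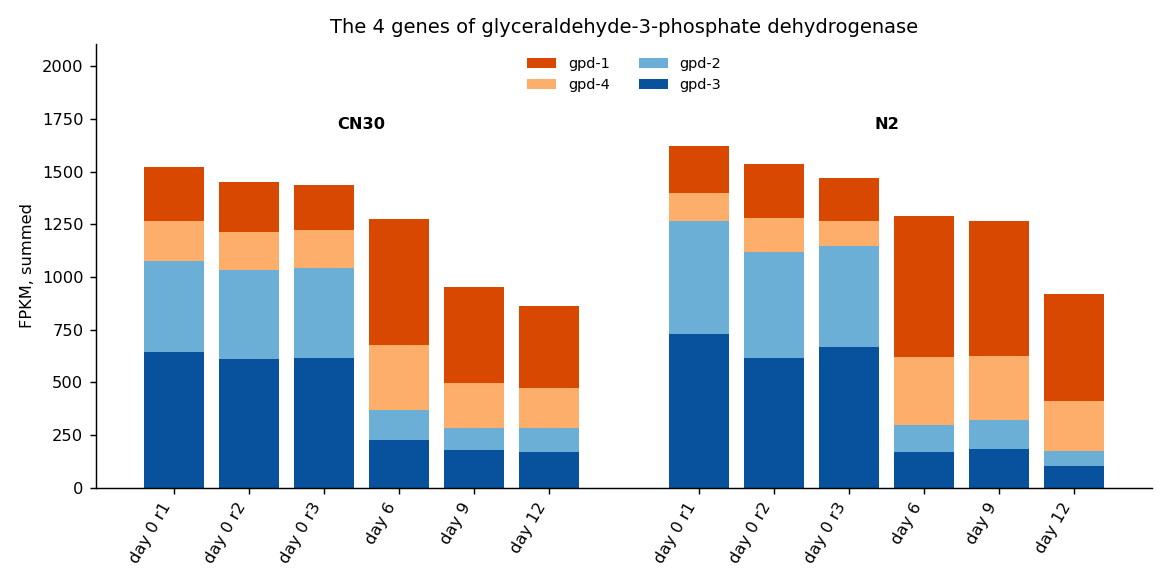
FPKM of the 4 GAPDH genes, stacked, in each of the 12 libraries; the vertical axis is linear from 0, blue parts are gpd-3 and gpd-2, orange parts are gpd-4 and gpd-1, and r1 to r3 are the day-0 replicates. The orange parts hold 67.5 to 81.2% of the bar in the later libraries and 21.7 to 29.2% at day 0.

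Phosphoglycerate kinase makes the first ATP of the pathway. In CN30, pgk-1 (chromosome I, 3867541 to 3869109, plus strand) had 127, 116 and 112 FPKM at days 6, 9 and 12, against 154, 151 and 156 FPKM at day 0. In N2 it had 139.02, 149 and 129 FPKM, against 157, 155 and 161 FPKM. The age classes did not overlap in either strain. The fall was 0.38 ± 0.07 on the log2 scale in CN30 (limma adjusted p = 0.00225). In N2 the change was -0.18 ± 0.08 and was not called (limma adjusted p = 0.0705). It was called lower with median-ratio rescaling (-0.36, limma adjusted p = 0.0407) and in the joint fit of all 12 libraries.

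Enolase, which makes phosphoenolpyruvate, is encoded by enol-1 (chromosome II, 8930997 to 8933799, plus strand). It had 605, 525 and 506 FPKM at days 6, 9 and 12 in CN30, against 669.9, 635 and 649.8 FPKM at day 0. In N2 the values were 662, 659 and 550.0 FPKM, against 675, 639.8 and 645 FPKM, and the classes overlapped. The log2 change in CN30 was -0.26 ± 0.09 (limma adjusted p = 0.0283), but it was 0.53 under quantile normalization (limma adjusted p = 0.000336). The call was also lost without any 1 of the 3 day-0 replicates of CN30 or without CN30 day 9 or day 12 (limma adjusted p between 0.0565 and 0.0966). In N2 the change was -0.07 ± 0.10 (limma adjusted p = 0.531), with 0.63 under quantile normalization (limma adjusted p = 0.000477).

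**Figure D5:**
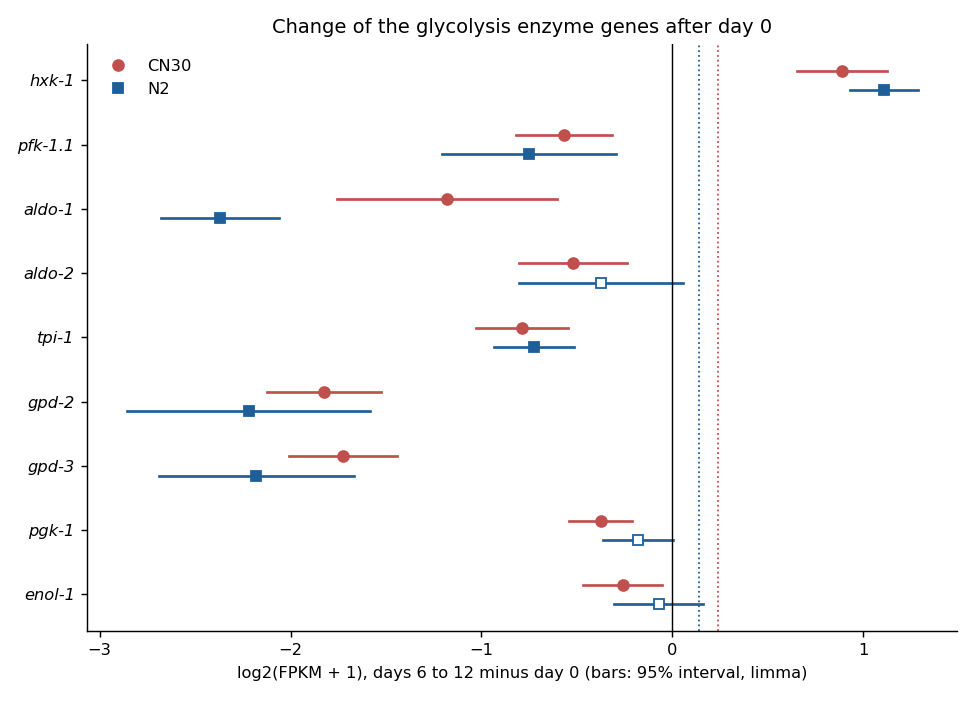
Log2(FPKM + 1) at days 6 to 12 minus day 0 in CN30 (red circles) and N2 (blue squares) for 9 of the 10 genes, with 95% intervals from limma; gpi-1 is left out because its change depends on the pseudocount. Filled symbols passed adjusted p of 0.05, open ones did not, and dotted lines are the medians of all genes, 0.24 in CN30 and 0.14 in N2. The gene hxk-1 lies above 0, gpd-2 and gpd-3 lie near -2, and the direction of aldo-2 and enol-1 turns under quantile normalization.

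The remaining genes of the pathway did not move as 1 group. Of the 8 other glycolysis genes listed, 2 rose, 3 fell and 3 were not called in CN30, and 4 rose, 2 fell and 2 were not called in N2, with a median log2 change of -0.08 and 0.15. In either direction, 5 of 8 were called in CN30, below the 80.9% of all genes, and 6 of 8 in N2, near the 72.7% of all genes. The gene pfk-1.2, counted as fallen, passed the filter only through day 0. Besides the hexokinase, phosphofructokinase and GAPDH genes above, these are ipgm-1, pyk-1 and pyk-2. Pyruvate kinase makes pyruvate and ATP at the end of the pathway, and its gene pyk-1 had 178 ± 24.1 FPKM at days 6 to 12 and 233 ± 6.61 FPKM at day 0 in CN30, and 201 ± 22.3 and 236 ± 36.2 FPKM in N2. It fell in CN30 (log2 change -0.39, limma adjusted p = 0.0118) and was not called in N2 (-0.22, limma adjusted p = 0.181). The second gene, pyk-2, had 16.8 ± 3.62 and 44.6 ± 5.25 FPKM in CN30 and 12.3 ± 3.64 and 35.4 ± 7.52 FPKM in N2, and fell by 1.37 and 1.47 on the log2 scale (limma adjusted p = 0.000397 and 0.0021). Phosphoglycerate mutase, ipgm-1, had 141 ± 3.61 FPKM at days 6 to 12 and 123 ± 8.51 FPKM at day 0 in N2, where it was called higher (0.20, limma adjusted p = 0.048), and was not called in CN30 (-0.18, limma adjusted p = 0.0999). The call of ipgm-1 in N2 was lost without N2 day-0 replicate 1 or 2 or without any 1 of the 3 later N2 libraries (limma adjusted p between 0.0739 and 0.149), and ipgm-1 was called lower in CN30 without CN30 day 6 (limma adjusted p = 0.0137). The call of pyk-1 in CN30 was lost under quantile normalization (-0.15, limma adjusted p = 0.22).

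Of 6 genes of gluconeogenesis and lactate metabolism, 6 were called lower after day 0 in CN30 and 4 in N2, 0 were called higher, and 2 were not called in N2. Over all genes 34.9% were called lower in CN30 and 32% in N2. The median log2 change of the 6 was -0.66 and -0.79, against 0.24 and 0.14 over all genes, and pck-3 passed the filter only through day 0. The phosphoenolpyruvate carboxykinase gene pck-2 had 386 ± 69.5 FPKM at days 6 to 12 and 635 ± 15.4 FPKM at day 0 in CN30, and 399.7 ± 72.7 and 592 ± 60.7 FPKM in N2, but its change of -0.73 and -0.58 turned to 0.03 and 0.10 under quantile normalization. Lactate dehydrogenase, ldh-1, had 89.9, 102 and 141 FPKM at days 6, 9 and 12 in CN30, against 145 to 153 FPKM at day 0, and 84.4, 80.0 and 99.2 FPKM in N2, against 173 to 180.2 FPKM. It fell in both strains, with log2 changes of -0.45 in CN30 and -1.004 in N2 (limma adjusted p = 0.0381 and 0.000122). Fructose-1,6-bisphosphatase, fbp-1, which opposes phosphofructokinase, had 108 ± 24.6 and 145 ± 4.47 FPKM in CN30 (-0.44, limma adjusted p = 0.039), and 148 ± 34.7 and 165 ± 12.8 FPKM in N2 (-0.18, limma adjusted p = 0.400). The CN30 calls of ldh-1 and fbp-1 were lost without any 1 of the 3 day-0 replicates or without day 9, that of ldh-1 also without day 6 and that of fbp-1 also without day 12 (limma adjusted p between 0.06 and 0.113). The N2 call of pck-2 was lost without N2 day-0 replicate 3 (limma adjusted p = 0.0549).

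The strains were compared at day 0, the only age with replicates. Of the 10 genes, 0 were called in limma, with 3 at an unadjusted p under 0.05, where 2.07% of 14380 genes were called higher, 1.61% lower and 3.68% in either direction. The largest difference was that of gpi-1, with 35.3 ± 4.17 FPKM in CN30 and 50.3 ± 3.05 FPKM in N2 (SD, n = 3 each), a log2 difference of -0.50 ± 0.10 (limma adjusted p = 0.0554). It was called without N2 replicate 2, the library that stood apart (-0.54, limma adjusted p = 0.0199), with quantile normalization (limma adjusted p = 0.0281), median-ratio rescaling (limma adjusted p = 0.031) and robust shrinkage (limma adjusted p = 0.0487). With the assembled locus added, the difference was 0.09 (limma adjusted p = 0.528). The gene gpd-2 had 434, 423 and 429 FPKM in CN30 and 541, 505 and 482 FPKM in N2, without overlap (log2 difference -0.25 ± 0.06, limma adjusted p = 0.105). Likewise pfk-1.1 had 59.2, 57.8 and 59.9 FPKM in CN30 and 61.5, 70.0 and 69.4 FPKM in N2 (-0.18 ± 0.07, limma adjusted p = 0.21). For the other 7 genes the 95% intervals of the log2 difference lay between -0.30 and 0.25.

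At days 6 to 12 the strains were compared with the libraries paired by day. Of the 9 genes tested, aldo-1 was higher in CN30 and 0 were lower, where 9.77% of 13015 genes were called higher, 3.21% lower and 13% in either direction. The level of aldo-1 was 76.4 ± 26.1 FPKM in CN30 and 34.5 ± 5.03 FPKM in N2 (SD over the 3 days, n = 3 each). It was higher in CN30 on 3 of 3 days, by 1.08 ± 0.13 on the log2 scale (95% interval 0.74 to 1.42, limma adjusted p = 0.029). The size held in every fit with a library left out, at 0.93 to 1.23, but the call did not. It was lost without CN30 or N2 day 6 (limma adjusted p = 0.0552 and 0.0592), without CN30 or N2 day 9 (0.16 and 0.157), without a day term (0.0841) and without a filter on low values (0.0693).

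Beside this difference, 2 of the 12 muscle markers, act-4 and myo-3, and 6 of 12 neuron markers tested were called higher in CN30 at days 6 to 12. In this fit 9.77% of all genes were called higher and 3.21% lower, and 10 of the 12 muscle markers were not called. The muscle markers summed to 1667, 899.7 and 915 FPKM at days 6, 9 and 12 in CN30 and to 785, 856 and 690.2 FPKM in N2, the neuron markers to 264, 324 and 382 FPKM in CN30 and to 199.9, 246 and 252 FPKM in N2. Of the neuron markers, unc-104 was listed at 0 in 3 of these 6 libraries and at 0.3 FPKM or less in the others. The oocyte markers went the other way, with 9 of 14 called lower in CN30 and 0 higher, and sums of 5873, 5891 and 5240 FPKM at days 6, 9 and 12 in CN30 and 6898, 7047 and 6271 FPKM in N2. The part of these tissues in the aldo-1 difference was not tested.

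The other 8 genes tested at days 6 to 12 were not called. The nearest to a call was pgk-1, lower in CN30 on 3 of 3 days, with 118 ± 7.68 FPKM in CN30 and 139.3 ± 9.99 FPKM in N2 (log2 difference -0.24 ± 0.07, limma adjusted p = 0.0901). It was called lower with median-ratio rescaling (-0.39, limma adjusted p = 0.04) and in the joint fit of all 12 libraries (limma adjusted p = 0.0439). The genes hxk-1 and enol-1 also had lower values in CN30 on all 3 days, at 159 ± 16.8 and 545 ± 52.7 FPKM in CN30 and 181 ± 9.39 and 624 ± 64.01 FPKM in N2, with log2 differences of -0.19 each that did not pass (limma adjusted p = 0.113 and 0.117). The oocyte sum was lower in CN30 on the same 3 days, and its part in the values of pgk-1, hxk-1 and enol-1 was not tested. How many of all genes were higher or lower in CN30 on 3 of 3 days was not counted, so such agreement is given only as a description. For gpd-3 the difference was 0.35 with a 95% interval of -0.02 to 0.73, and for gpd-2 it was 0.15 with an interval of -0.41 to 0.71.

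Whether the change after day 0 differed between the strains was tested over all 12 libraries. Of the 10 genes, 0 were called in limma and 1 had an unadjusted p under 0.05, where 1.15% of 15719 genes had a higher interaction, 0.852% a lower one and 2% either. That gene was aldo-1, with an interaction of 1.19 ± 0.29 on the log2 scale, a smaller fall in CN30 than in N2 that did not pass (limma adjusted p = 0.0615). It was called without CN30 day 6 (1.45, limma adjusted p = 0.00674), without N2 day 12 (1.28, limma adjusted p = 0.0294), and without both day-6 libraries, an alternative chosen after seeing the data (1.34, limma adjusted p = 0.017). For hxk-1 the interaction was -0.22 with a 95% interval of -0.49 to 0.05, and for gpd-3 it was 0.45 with an interval of -0.13 to 1.03.

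Between day 6 and day 12, with both strains together, 2 of the 10 genes were called lower and 0 higher, with 7 at an unadjusted p under 0.05, where 2.49% of 15719 genes were called lower, 1.31% higher and 3.8% in either direction. The difference rests on 2 against 2 libraries, but the spread comes from all 12, day 0 included. With the 6 later libraries alone, 0 of 9 genes were called and 5 had an unadjusted p under 0.05. The genes called in the main fit were aldo-2 and gpi-1. For aldo-2 the level was 534 and 470.0 FPKM at day 12 in CN30 and N2 and 712 and 736 FPKM at day 6 (log2 difference -0.53 ± 0.11, limma adjusted p = 0.0319). The annotated gpi-1 had 0 FPKM at day 12 in both strains and 5.93 and 1.55 FPKM at day 6 and entered this fit only through its day-0 libraries, so its call is no support. It was lost with the locus added (-0.20, limma adjusted p = 0.43) and without CN30 day-0 replicate 1, CN30 day 6, CN30 day 12 or N2 day 12 (limma adjusted p between 0.0515 and 0.166). For aldo-2 the call was lost with quantile normalization, with median-ratio rescaling and in a fit of the 6 later libraries alone (limma adjusted p = 0.235, 0.0956 and 0.0901). It was also lost without any 1 of the 3 day-0 replicates of CN30, without CN30 day 6 or day 12, and without N2 day 6 or day 12 (limma adjusted p between 0.0528 and 0.175). Without CN30 day 12, pfk-1.1 and gpd-2 were called lower instead (limma adjusted p = 0.0392 and 0.0228). In contrast, aldo-1 had higher values at day 12 than at day 6 in both strains, with 103 FPKM at day 12 and 50.8 FPKM at day 6 in CN30 and with 39.3 and 29.3 FPKM in N2, a log2 difference of 0.71 ± 0.35 that did not pass (limma adjusted p = 0.31). Each strain has 1 library per day here, and the fit holds 1 strain difference for all ages. A strain difference that changes with age therefore adds to its spread. For aldo-1 the CN30 mean was 92.5% of that of N2 at day 0 and 222% at days 6 to 12, so its failed call says little about a rise between these days. The intestine markers moved over the same days, with 6 of 12 called lower at day 12 than at day 6 and sums of 2427 and 3041 FPKM at day 12 in CN30 and N2 and 8851 and 11423 FPKM at day 6, and their part was not tested.

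Genes whose pattern was most like that of a glycolysis gene were taken from 8548 annotated genes with a mean of at least 5 FPKM, by Pearson's r of log2(FPKM + 1) over the 12 libraries, given as a description. Nearest to aldo-1 were ent-2, a nucleoside transporter gene (r = 0.993), F15G9.1 (0.992) and R05D7.1 (0.989). Nearest to aldo-2 were glrx-5 (0.973), clec-160 and acl-1 (0.968 each). Nearest to gpd-3 were asb-2, an ATP synthase subunit gene (0.994), cpn-3, a calponin gene (0.994), and gpd-2 (0.994). Among the 10 genes themselves, aldo-1 and enol-1 were least alike of the 9 genes other than hxk-1 (r = 0.243), and gpd-2 and gpd-3 most alike. All of these values share the libraries and their large difference between the age classes.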

How the data were processed

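Total RNA of whole worms was sequenced in 12 libraries. The authors deposited FPKM per gene and library, per the file headers, in a pair of tables. That of mRNA has 22191 genes, 3167 of them assembled loci, and that of lncRNA has 3926. Another deposited table, in other units (exons, bases, positions), describes 9161 assembled transcripts from 7388 loci. HISAT, StringTie and the build WBcel235 are named in the submitters' processing notes, without versions or roles. Counts and depth are not known, so limits from depth cannot be given. Symbols were found for 18888 of 19024 numbered genes in the RefSeq table of WBcel235, and positions come from Ensembl release 115 of that build.

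The scale was log2(FPKM + 1), fitted in R 4.3.3 by limma 3.58.1 (lmFit and trended eBayes). Genes needed at least 1 FPKM in at least 3 libraries of a fit. Two-sided p-values were adjusted with the Benjamini-Hochberg method across the genes of a fit, at 0.05. Fits set CN30 against N2 at day 0 (3 libraries each) and at days 6 to 12 (day as a factor), days 6 to 12 with day 0 in each strain, the product of strain and age class, and day 12 with day 6 (strain as a term). An exact permutation test of 3 against 3 libraries cannot go below p = 0.1, so calls rest on the spread that limma pools over genes. Assembled loci that overlap a gene's exons on the same strand were added to it as an alternative. Quantile normalization, a pseudocount of 0.1, unfiltered tables, robust shrinkage, median-ratio rescaling, other terms and leaving out each library were also tried. Scripts were tested on simulated data. Matplotlib 3.10.9, NumPy 2.4.6 and pandas 2.3.3 under Python 3.11.15 drew the figures.

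The 10 genes and all lists were chosen with earlier results of these data known. Named genes are the 10, the listed genes of the same or missing steps, up to 3 more per list with the smallest p among those called, and the 3 nearest in pattern to aldo-1, aldo-2 and gpd-3; the tissue markers, mai-1, ubc-14 and F14B4.1 were named outside this rule.

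The labels do not say whether the replicate numbers in the titles pair libraries of the strains. Deviations of same-numbered day-0 libraries of the strains had correlations of 0.045, -0.040 and -0.015 across genes. Those of differently numbered libraries lay between -0.18 and 0.15. Such values show no shared effect but cannot settle whether the libraries were paired.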

Additional observations from a re-analysis of the deposited data

How the results depend on the processing

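Of the calls on the 10 genes after day 0, those of hxk-1, pfk-1.1, aldo-1, tpi-1, gpd-2 and gpd-3 kept their direction and their side of the threshold in both strains under every alternative run. Quantile normalization called 3 genes higher in CN30 and 2 in N2, with aldo-2 at 0.32 and 0.36 and enol-1 at 0.53 and 0.63, and gave pck-2 at 0.032 and 0.10 and hxk-2 at -0.32 and -0.35. Median-ratio rescaling gave hxk-2 at -0.26 and -0.070. With a library left out, enol-1 in N2 ranged between -0.12 and 0.017 and fbp-1 between -0.31 and 0.026, both turning without N2 day 12. At day 0, 1 gene was called lower with quantile normalization, median-ratio rescaling or robust shrinkage, and 0 to 1 with a library left out. There hxk-1 stood at -0.015 with quantile normalization and -0.050 with median-ratio rescaling, and gpi-1 at 0.088 with its locus added. With a library left out, hxk-1 ranged between -0.0043 and 0.088 and enol-1 between -0.024 and 0.020. At days 6 to 12, 1 gene was called lower with median-ratio rescaling and in the joint fit. There 0 were called higher with no filter, no day term or both day-6 libraries left out (chosen after seeing the data), and 0 to 1 with a library left out. Median-ratio rescaling gave pfk-1.1 at -0.15 and gpd-2 at -0.0048, and with a library left out pfk-1.1 ranged between -0.15 and 0.14, aldo-2 between -0.18 and 0.068, and gpd-2 between -0.13 and 0.43. In the interaction, 1 gene was called higher with both day-6 libraries left out and 0 to 1 with a library left out. There gpi-1 stood at -0.28 with its locus added, pfk-1.1 ranged between -0.032 and 0.30, and tpi-1 between -0.15 and 0.0064. Between day 12 and day 6, 1 gene was called lower with quantile normalization, median-ratio rescaling or loci added, 0 in the later libraries alone, and 0 to 2 with a library left out. Adding the locus changes gpi-1 by construction, and for the other changes the cause was not tested.

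Over all genes, counts of calls between the strains were unstable: 81 to 1753 at day 0 and 0 to 1050 at days 6 to 12 with a library left out, against 529 and 1690. At days 6 to 12 there were 2 with no filter, 134 with no day term, 9 without both day-6 libraries and 3168 with median-ratio rescaling. Interaction calls numbered 58 to 2025 with a library left out, against 315. With the replicate number as a block at day 0, 158 genes and 0 of the 10 were called, though whether the numbers pair libraries is not known. The ratio of aldo-2 over aldo-1 differed by 1.13 to 1.49 with a library left out, and that of gpd-2 over gpd-3 by -0.09 to -0.03. The depth is unknown, so its effect on low values such as mai-1 was not assessed.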

Other observations

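The counts of genes next to glycolysis are to be read against all genes, of which 46% were called higher and 34.9% lower after day 0 in CN30 (80.9% in either direction), and 40.7% and 32% in N2 (72.7%). Of 8 genes for the entry of pyruvate into mitochondria, 2 rose and 4 fell in CN30, and 2 rose and 5 fell in N2, in limma adjusted over all genes. The share called was close to that of all genes in CN30, whereas in N2 only 1 of the 8 was not called, so the share was somewhat above it. The mitochondrial pyruvate carrier gene mpc-1 had 46.5 ± 4.24 FPKM at days 6 to 12 and 80.1 ± 1.11 FPKM at day 0 in CN30, and 44.1 ± 4.93 and 90.7 ± 11.2 FPKM in N2 (SD, n = 3 each). The pyruvate dehydrogenase phosphatase gene pdp-1 rose, with 64.6 ± 9.74 and 40.01 ± 2.37 FPKM in CN30 and 82.6 ± 7.78 and 37.2 ± 0.989 FPKM in N2.

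Of the 4 pentose phosphate genes, 3 fell in CN30 and 3 in N2, where 1 rose. Thus 3 of 4 were called in CN30, near the share of all genes, and all 4 in N2, above it. These falls were those of gspd-1, tald-1 and tkt-1, and tkt-1, the transketolase gene, had 239.9 ± 42.7 FPKM at days 6 to 12 and 442 ± 12.0 FPKM at day 0 in CN30, and 305 ± 37.1 and 398 ± 17.8 FPKM in N2. Of 11 genes for trehalose, glycogen and glycerol tested, 3 rose and 4 fell in CN30, and 2 rose and 2 fell in N2, fewer calls in all than among all genes, and gpdh-1 and, in N2, tre-4 passed the filter on low values only through day 0. The glycerol-3-phosphate dehydrogenase gene gpdh-1, known to respond to osmotic stress, had 1.65 ± 0.785 and 30.4 ± 4.09 FPKM in CN30 and 0.77 ± 0.291 and 29.5 ± 17.5 FPKM in N2. Of 10 regulators of glycolysis tested, 6 rose and 1 fell in CN30, and 4 rose and 1 fell in N2, also fewer calls in all than among all genes. The gene pfkb-1.2, which encodes an enzyme that sets the level of fructose-2,6-bisphosphate, had 74.2 ± 6.69 FPKM at days 6 to 12 and 40.5 ± 1.97 FPKM at day 0 in CN30, and 91.1 ± 4.05 and 35.1 ± 1.69 FPKM in N2. The gene that fell was hif-1, the hypoxia-inducible factor, with 60.5 ± 0.486 and 77.8 ± 0.603 FPKM in CN30 and 47.3 ± 3.95 and 75.4 ± 9.55 FPKM in N2.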
